A study of Homo sapiens with 18 samples.

Results

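Gene expression was compared between untreated HL-60 and untreated MOLM-13, a pair of established human cell lines of acute myeloid leukemia (AML). The 6 samples with solvent alone were taken, 3 of each line, out of 18 RNA-sequencing samples in all, and every gene listed for either line was kept. Of 19068 genes, 15517 had values in both lines, 1593 in HL-60 alone and 1958 in MOLM-13 alone. The study set the DNA methylation inhibitors decitabine (DAC) and NTX-301 against DMSO, a solvent used as the control, for 48 h in each line, in triplicate wells of cells grown in RPMI1640 with 10% fetal bovine serum, and the RNA is labelled day 2. All 6 groups of 3 samples (HL60_DMSO, HL60_DAC, HL60_NTX301, MOLM13_DMSO, MOLM13_DAC and MOLM13_NTX301) came from such wells, which are not stated to be separate cultures, so the p-values given here measure only the spread between these samples, which may be technical. Each line stands for itself: with 1 line of each kind, nothing here separates a subtype of leukemia from a single cell line.

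As background, HL-60 cells are arrested near the promyelocyte stage, when neutrophil precursors fill their azurophil granules with myeloperoxidase and serine proteases. The line is known for an amplified MYC gene and an activated NRAS gene. MOLM-13 comes from a monocytic leukemia and is known for a KMT2A::MLLT3 fusion, which keeps HOXA genes and their partner MEIS1 on, and for an internal tandem duplication in FLT3, a receptor kinase that signals through STAT5. The comparison asks how the lines differed in lineage genes, oncogenes, tumor suppressors and surface markers before any drug.

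The values are the authors' normalized log2 values, and the lines had been normalized in separate tables, so a difference between the lines and a difference between the tables cannot be told apart. To set the lines on one scale, each sample was centred on its own median over the shared genes, which lay between 10.0 and 10.3 before centring; a value of 0 is then a gene at its sample's median. A difference is always MOLM-13 minus HL-60 in log2 units, so a positive value is higher in MOLM-13. Read depth is not given in these tables. Replicates were close: Pearson's r between samples of a line was 0.9997 to 0.9998 across genes, and the median SD of a gene was 0.033 in HL-60 and 0.039 in MOLM-13. No pair of samples held the same values at more than 0.00584% of genes. In bulk RNA, fewer cells of a type and less RNA per cell cannot be told apart.

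The lines differed over much of the transcriptome. With limma's moderated test across all 15517 shared genes and Benjamini-Hochberg adjustment, 4506 genes (29.0%) had an adjusted p under 0.05 and a difference of at least 1 log2 unit, the rule by which a gene is called here. Of these, 2235 (14.4%) were higher in MOLM-13 and 2271 (14.6%) were higher in HL-60. The median size of a difference was 0.58, 1555 genes differed by at least 2 units and 309 by at least 4. An adjusted p alone separates little at this replicate spread: 14364 genes (92.6%) had one under 0.05, and in 14370 genes (92.6%) the 3 samples of one line did not overlap the 3 of the other. For a single gene, an exact permutation test of 3 samples against 3 cannot go below 0.1. The split of the calls between the lines depends on the scale: without centring, which moves the median of all genes by 0.30, 67.7% of calls were higher in MOLM-13 against 49.6% with it, with ribosomal protein genes as the reference (a shift of -0.13) 41.7%, and with the mean of housekeeping genes (a shift of -0.11) 42.9%. Centring on the housekeeping genes' median moved all genes by -1.16 and left 7.62%. A positive difference smaller than the last shift, such as those of EPX, PVT1 and SAMHD1, turns negative under it, and a called difference that exceeds the shift by less than 1 unit is then no longer called; the distance of a gene or list from the median of all genes, -0.14, does not depend on them.

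**Figure D1:**
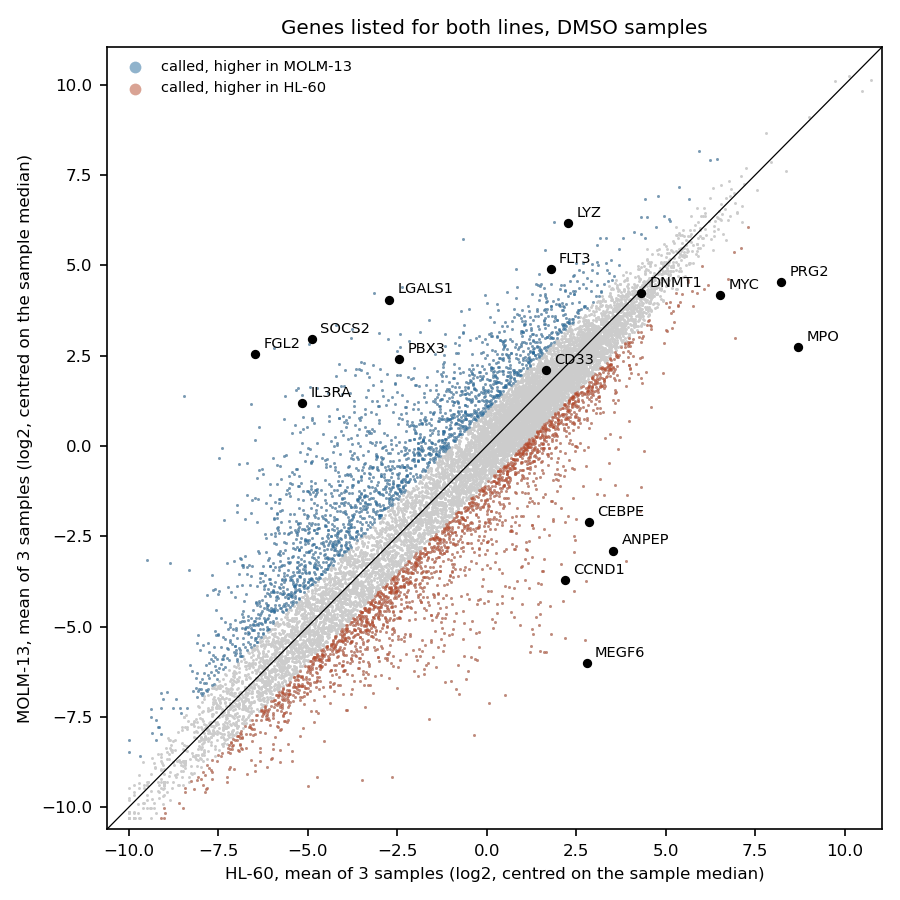
Mean centred log2 value of each shared gene in the 3 HL-60 samples (x axis) and the 3 MOLM-13 samples (y axis), with genes called higher in MOLM-13 in blue, genes called higher in HL-60 in red, other genes in grey, and the line of equal values in black. The called genes flank the diagonal in similar numbers, 2235 and 2271, and the labelled genes MPO and PRG2 are among the highest of all in HL-60 while SOCS2, IL3RA and FGL2 are low there and above the median in MOLM-13.

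The granule genes divided between the lines. MPO (NCBI Gene 4353, chromosome 17), the peroxidase that defines azurophil granules, stood at 8.67, 8.69 and 8.74 in the HL-60 samples and at 2.77, 2.70 and 2.74 in the MOLM-13 samples. It was 62.6-fold higher in HL-60, a difference of -5.97 (SE 0.028, limma adjusted p = 2.01e-24), and was at percentile 99.97 in HL-60 against 89.2 in MOLM-13. SERPINB10, a serpin of myeloid cells, differed by -5.43 in the same direction, and MS4A3, a membrane protein of granulocyte and monocyte progenitors, by -1.75. LYZ, the bacteriolytic enzyme lysozyme that monocytes make in bulk, ran the other way, with 2.25, 2.29 and 2.29 in HL-60 against 6.12, 6.20 and 6.18 in MOLM-13. That is 14.8-fold higher in MOLM-13, a difference of 3.89 (SE 0.028, limma adjusted p = 2.61e-22). PRSS57, a neutrophil serine protease, was likewise higher in MOLM-13 by 3.26, AZU1, which encodes azurocidin, by 1.84, and the ribonuclease RNASE2 by 2.40. The remaining proteases of the granule were near each other in the lines: ELANE, neutrophil elastase, read 4.17, 4.22 and 4.37 against 4.67, 4.58 and 4.66, a difference of 0.38 (SE 0.042, limma adjusted p = 2.97e-07) that did not reach 1 unit, and PRTN3 and CTSG differed by 0.51 and -0.58. The ELANE groups did not overlap, and it was at percentile 97.4 in HL-60 and 98.4 in MOLM-13. Of 18 azurophil and related granule genes measured in both lines, 9 were called higher in MOLM-13, 3 higher in HL-60 and 6 were not called, with a median of 1.01 that turned to -0.14 when samples were centred on the housekeeping median. Together 66.7% were called, against 29.0% of all genes. The alpha-defensin genes DEFA1, DEFA1B, DEFA3 and DEFA4, antimicrobial peptides of these granules, were listed for HL-60 alone, with DEFA3 at percentile 44.6, and since they are near-identical copies the counting may divide reads among them.

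Eosinophil and basophil granule genes gave few members. PRG2, the major basic protein of eosinophils, read 8.21, 8.26 and 8.23 in HL-60 against 4.48, 4.57 and 4.54 in MOLM-13, higher in HL-60 (difference -3.70, SE 0.028, limma adjusted p = 4.70e-22) while still at percentile 98.2 in MOLM-13. CLC, the galectin of Charcot-Leyden crystals, and MS4A2, a chain of the IgE receptor, were also higher in HL-60, with differences of -3.32 and -3.51. EPX, eosinophil peroxidase, was the exception among the 4 genes measured in both lines, at -1.51, -1.48 and -1.46 in HL-60 against -0.40, -0.51 and -0.40 in MOLM-13. It was 1 of the 2235 genes called higher in MOLM-13, with a difference of 1.05 (SE 0.047, limma adjusted p = 3.52e-12).

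Monocyte and macrophage genes were called higher in MOLM-13 more than in HL-60. Of 25 measured in both lines, 16 were called higher there, 2 were called higher in HL-60 and 7 were not called, and their median difference was 1.81 against -0.14 for all genes. The called shares were 64% and 8%, against 14.4% and 14.6% of all genes. Another 7 of the 47 genes of the list, CD14 and FCGR3A among them, were listed for neither line. MS4A7, a macrophage membrane protein, stood at -4.37, -4.46 and -4.46 in HL-60 against 1.36, 1.52 and 1.49 in MOLM-13, a difference of 5.89 (SE 0.053, limma adjusted p = 3.77e-21). CD1D, which presents lipids to T cells, read -5.65, -5.65 and -5.66 against -0.36, -0.20 and -0.30, a difference of 5.37 (SE 0.048, limma adjusted p = 3.74e-21). CD68, a lysosomal protein of macrophages, read -3.24, -3.18 and -3.20 against 1.24, 1.25 and 1.28, a difference of 4.46 (SE 0.043, limma adjusted p = 1.06e-20). In each of these the HL-60 samples were far under the median gene and the MOLM-13 samples near or above it, with no overlap. The integrin chains of monocytes ITGAX and ITGAM differed by 4.72 and 2.87, the chemokine receptor CCR2 by 3.95, and the Fc receptors FCGR1A and FCGR2A by 1.99 and 2.26. CSF1R, the receptor for macrophage colony-stimulating factor, stayed near the MOLM-13 median at -0.53, -0.51 and -0.41 and was at -3.41, -3.44 and -3.37 in HL-60, a difference of 2.92 (SE 0.050, limma adjusted p = 1.04e-17). Higher in HL-60 were AIF1, a calcium-binding protein of macrophages, at -1.34, and S100A9, a calprotectin chain, at -1.33. VCAN, a matrix proteoglycan, and the inhibitory receptors LILRB1, LILRB2 and LILRB4 were among those listed for MOLM-13 alone, while the chemoattractant receptors C5AR1 and FPR1, the lectin receptor CLEC7A and the Fc receptor chain FCER1G were listed for HL-60 alone. LILRB4 lay at percentile 83.6 and LILRB2 at 28.9 of the MOLM-13 samples. In the HL-60 samples FCER1G lay at 41.8, CLEC7A at 29.9 and C5AR1 at 7.53, so the percentiles of the genes listed for 1 line overlapped. The promoters of 4 of the called genes show a feature many of this list share, the core of the binding motif of PU.1, the ETS factor of the myeloid lineage: GAGGAA, or TTCCTC on the other strand, in capitals in the 250 bases before the gene's start (RefSeq, GRCh38.p14).
CD68, chr17:7579388-7579637, plus strand: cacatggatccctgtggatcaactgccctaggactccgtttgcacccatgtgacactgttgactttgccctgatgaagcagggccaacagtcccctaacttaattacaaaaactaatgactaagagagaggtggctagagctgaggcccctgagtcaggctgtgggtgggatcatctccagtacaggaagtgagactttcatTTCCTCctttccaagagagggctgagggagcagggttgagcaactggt
MS4A7, chr11:60378282-60378531, plus strand: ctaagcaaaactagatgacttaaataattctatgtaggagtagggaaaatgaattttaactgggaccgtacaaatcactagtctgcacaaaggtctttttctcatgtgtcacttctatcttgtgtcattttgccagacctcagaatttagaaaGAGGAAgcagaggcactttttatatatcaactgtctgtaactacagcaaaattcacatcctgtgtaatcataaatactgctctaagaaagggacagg
CD1D, chr1:158179697-158179946, plus strand: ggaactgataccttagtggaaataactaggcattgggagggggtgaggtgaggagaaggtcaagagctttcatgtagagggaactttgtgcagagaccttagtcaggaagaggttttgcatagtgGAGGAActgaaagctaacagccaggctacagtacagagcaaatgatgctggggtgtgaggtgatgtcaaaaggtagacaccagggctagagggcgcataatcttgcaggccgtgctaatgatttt
CSF1R, chr5:150086555-150086804, minus strand: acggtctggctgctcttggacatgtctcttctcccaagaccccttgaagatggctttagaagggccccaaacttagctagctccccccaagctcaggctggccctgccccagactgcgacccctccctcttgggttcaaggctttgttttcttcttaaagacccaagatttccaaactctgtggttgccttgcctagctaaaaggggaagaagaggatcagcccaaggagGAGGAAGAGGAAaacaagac
A window of this length held the motif in 14 of the 18 monocyte genes that have one, against 27.3% of 27305 genes and 23.6% of 35116 windows in the table. The 14 include AIF1 and S100A9, which were called higher in HL-60, and not CCR2, which was higher in MOLM-13. A match is a stretch of letters and not a site of binding; a gene with several starts has several windows, and CSF1R and CD1D each also have a window with no match. SPI1, the gene for PU.1 itself, read 2.04, 2.02 and 2.08 in HL-60 against 1.75, 1.59 and 1.59 in MOLM-13, a difference of -0.41 that was not called.

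Genes that work beside these followed the same order in part. The NADPH oxidase makes superoxide in phagocytes, and of its 9 measured subunits and partners 5 were called higher in MOLM-13 and none in HL-60, with a median of 1.16 (0.0038 when centred on the housekeeping median). The 5 are 55.6% of the list, against 14.4% of all genes called higher in MOLM-13. CYBB, the catalytic subunit, read -1.81, -1.83 and -1.82 in HL-60 against -0.40, -0.33 and -0.36 in MOLM-13. NCF1 differed by 4.0, a value to read with care because it has near-identical pseudogenes. As a share of the sum of a sample's linear values, not adjusted for gene length, 8 granulocytic markers made up 0.926% to 0.982% in HL-60 and 0.30% to 0.317% in MOLM-13. MPO carried that order: without it, a setting added after the values were seen, the other 7 made up 0.242% to 0.261% in HL-60 against 0.289% to 0.305% in MOLM-13. The 6 monocytic markers of 10 listed for HL-60 made up 0.0194% to 0.0197% there, and the 8 listed for MOLM-13 made up 0.163% to 0.169%. Markers of other blood cells made up smaller shares: none of 4 T cell markers was listed for HL-60 and CD3D alone for MOLM-13, at 0.000231% to 0.000255%. Of 4 B cell markers CD79A was listed for HL-60 and PAX5 for MOLM-13, at most 0.000142% of a sample, and of 4 erythroid markers HBA1 and HBB were listed for MOLM-13 alone, at 0.000717% to 0.00104%. Of 3 NK cell markers NKG7 was listed for both lines and called higher in MOLM-13, at 2.27, and NCAM1 for MOLM-13 alone, together 0.0030% to 0.00315% there against 0.000324% to 0.000355% in HL-60. Of 3 megakaryocyte markers ITGA2B alone was listed, higher in HL-60 at -3.57, and of 4 stem cell markers KIT and GATA2 made up 0.00713% to 0.00752% in HL-60 and GATA2 0.00313% to 0.00351% in MOLM-13. The part of such cells or transcripts in the differences was not tested.

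**Figure D2:**
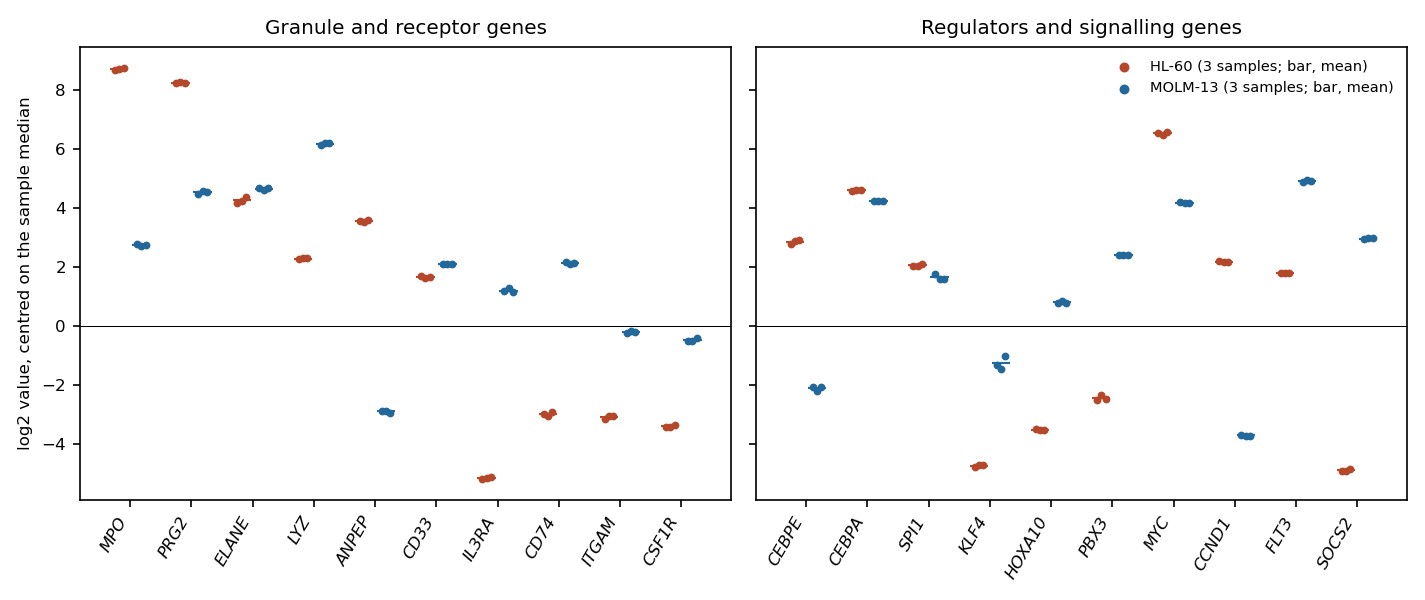
Centred log2 values (y axis) of selected granule, receptor, regulator and signalling genes in each of the 3 HL-60 samples (red) and 3 MOLM-13 samples (blue), with a bar at each mean and a line at 0, the sample's median gene. The points of a line lie close together in every gene, and CEBPA, SPI1, ELANE and CD33 differ by less than 1 unit between the lines while MPO, CEBPE, IL3RA and SOCS2 differ by several.

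The lineage transcription factors did not lean to one line: of 38 measured in both, 7 were called higher in MOLM-13, 7 higher in HL-60 and 24 were not called, and the median was -0.26. That is 36.8% called, against 29.0% of all genes. The factors that both lineages use were high in both. CEBPA, which starts granulocyte and monocyte differentiation, read 4.56, 4.60 and 4.61 in HL-60 against 4.22, 4.21 and 4.23 in MOLM-13, and RUNX1, MYB and ZEB2 differed by -0.10, 0.71 and 0.04. GFI1, a repressor that favors granulocytes, read 4.49, 4.48 and 4.52 against 3.62, 3.61 and 3.60, a difference of -0.88, under the 1 unit needed for a call though the groups did not overlap. CEBPE, which drives late granulocyte maturation and granule genes, set the lines apart, at 2.78, 2.86 and 2.91 in HL-60 against -2.07, -2.19 and -2.07 in MOLM-13. It was 31.1-fold higher in HL-60, a difference of -4.96 (SE 0.045, limma adjusted p = 5.10e-21). IKZF2, the zinc finger factor Helios, was also higher in HL-60, with a difference of -5.11 (SE 0.047, limma adjusted p = 5.21e-21), as were ZEB1 at -3.47, TCF4 at -1.72 and RUNX3 at -1.69. In MOLM-13 the higher factors included KLF4, which promotes monocyte differentiation, at -4.78, -4.72 and -4.71 in HL-60 against -1.33, -1.45 and -1.02 in MOLM-13. Its MOLM-13 samples were spread more widely than those of most genes, and its difference was 3.47 (SE 0.080, limma adjusted p = 5.40e-16). IRF5, a factor of inflammatory macrophages, differed by 3.17 (SE 0.042, limma adjusted p = 4.08e-19), and MEF2D, NR4A1 and CEBPD by 2.16, 2.31 and 1.85. CEBPD lies on chromosome 8, where most genes were called higher in MOLM-13. Without the genes of that chromosome the median of the lineage factors was -0.36. IRF8, which directs progenitors to monocytes and dendritic cells, and MEF2C were listed for MOLM-13 alone, at percentiles 97.1 ± 0.088 and 98.1 ± 0.084 (SD, n = 3).

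Most HOXA genes and several of their partners were higher in MOLM-13 or listed for it alone. HOXA9 and MEIS1, the pair most tied to KMT2A-rearranged leukemia, were listed for MOLM-13 alone, HOXA9 at percentiles 82.9, 83.0 and 82.5 of its 3 samples and MEIS1 at 83.8, 84.3 and 84.9. HOXA2, HOXA3, HOXA-AS3 and ZNF521 were also listed for that line alone, with ZNF521, a zinc finger factor of stem cells, at percentile 94.3. No HL-60 level is given for these genes, so they have no difference and no test. HOXA10, a neighbor of HOXA9 in the cluster on chromosome 7, had values in both lines, -3.50, -3.51 and -3.53 in HL-60 against 0.77, 0.85 and 0.78 in MOLM-13. It was 19.9-fold higher in MOLM-13, a difference of 4.31 (SE 0.046, limma adjusted p = 2.91e-20). HOXA5, HOXA6 and HOXA7 differed by 4.44, 5.03 and 3.95, HOXA11 and HOXA13 by 2.34 and 1.74, and HOXA4 by 1.72. Every HOXA gene with a called difference was thus higher in MOLM-13. PBX3, a homeodomain partner of HOXA9, read -2.51, -2.35 and -2.49 against 2.39, 2.41 and 2.40, a difference of 4.85 (SE 0.046, limma adjusted p = 7.09e-21). BMI1, a Polycomb subunit that represses CDKN2A, read 0.76, 0.89 and 0.81 against 4.84, 4.94 and 4.93, a difference of 4.08 (SE 0.036, limma adjusted p = 2.85e-21). LGALS1, the secreted lectin galectin-1, gave the largest difference of this list, from -2.69, -2.70 and -2.79 to 4.02, 4.07 and 4.05, or 6.78 (SE 0.038, limma adjusted p = 1.63e-23). MEIS2, a relative of MEIS1, was the reverse, at 0.88, 0.73 and 0.71 in HL-60 against -3.91, -3.96 and -3.90 in MOLM-13, a difference of -4.69 (SE 0.053, limma adjusted p = 6.57e-20). KMT2A itself read 3.55, 3.50 and 3.49 in HL-60 against 2.07, 1.96 and 2.03 in MOLM-13 and was called higher in HL-60, at -1.49 (SE 0.032, limma adjusted p = 2.04e-16), and MLLT3, the other gene of the fusion, differed by -0.75 and was not called. Gene-level values do not separate the fusion transcript from the intact genes. Of the 33 genes of this list measured in both lines, 17 were called higher in MOLM-13 and 3 higher in HL-60, with a median of 1.10 (-0.055 when centred on the housekeeping median). These are 51.5% and 9.09%, against 14.4% and 14.6% of all genes. From the HOXB, HOXC and HOXD clusters HOXD13 alone was used here, listed for HL-60 at percentile 10.95, and the other 27 genes were not analysed here.

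**Figure D3:**
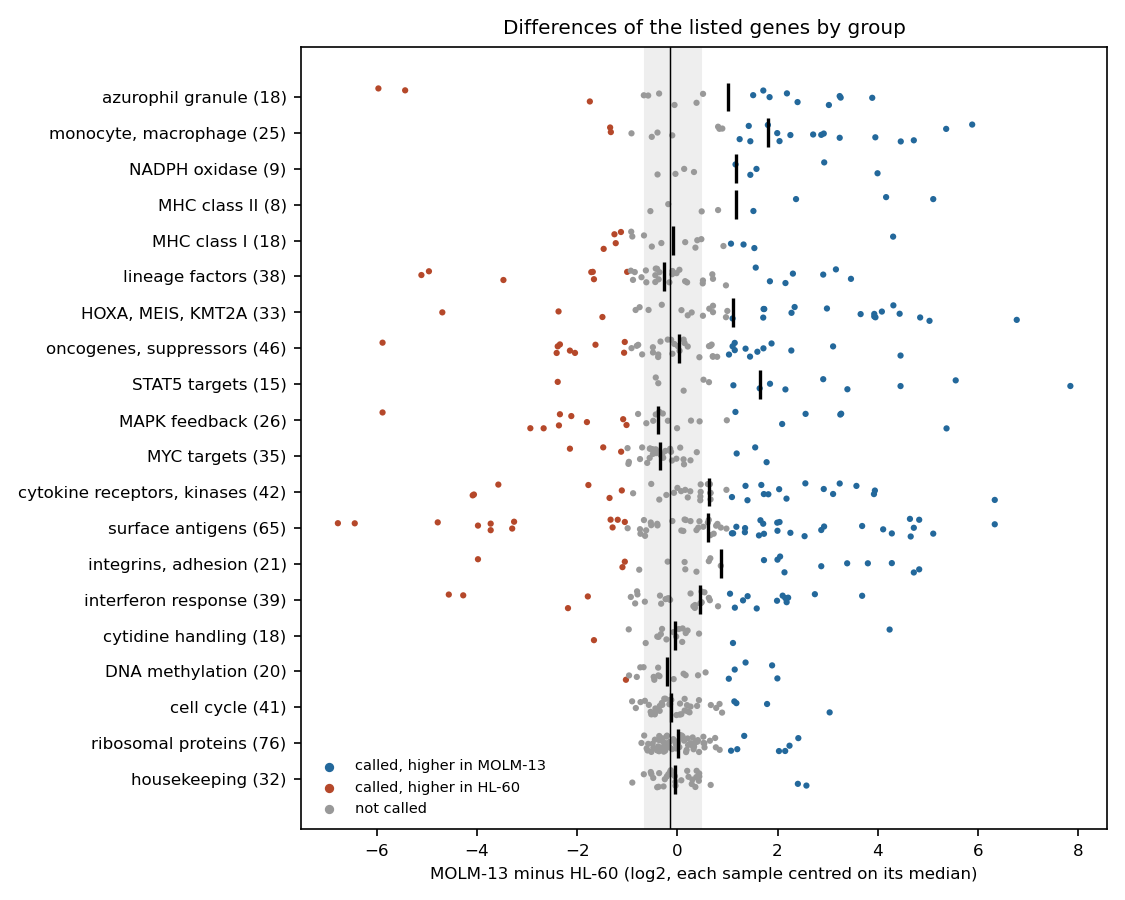
Difference in log2 units, MOLM-13 minus HL-60 (x axis), of each gene of the lists (rows, with the number of genes measured in both lines), in blue where called higher in MOLM-13, red where called higher in HL-60 and grey where not called. Thick bars are list medians, the thin line is the median of all 15517 genes, -0.14, and the band is their middle quartiles; the medians of the monocyte list (1.81) and of the STAT5 targets (1.64) lie right of the band and the medians of the cell cycle (-0.12) and ribosomal protein (0.01) lists lie within it.

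Among receptor kinases and the STAT5 pathway, most called genes were higher in MOLM-13. FLT3 (NCBI Gene 2322, chromosome 13) read 1.79, 1.79 and 1.77 in HL-60 against 4.85, 4.94 and 4.89 in MOLM-13, which put it at percentile 77.2 and 98.8. It was 8.63-fold higher in MOLM-13, a difference of 3.11 (SE 0.028, limma adjusted p = 3.73e-21). SOCS2, a feedback inhibitor that STAT5 induces, showed the largest difference of the STAT5 targets, from -4.90, -4.91 and -4.86 in HL-60 to 2.94, 2.97 and 2.96 in MOLM-13. This was 230.1-fold, a difference of 7.85 (SE 0.043, limma adjusted p = 1.40e-23). PIM1, a serine kinase under STAT5, read -2.50, -2.46 and -2.52 against 1.90, 1.95 and 2.04, a difference of 4.46 (SE 0.046, limma adjusted p = 1.95e-20), and STAT5A itself differed by 3.40 while STAT5B, at 0.52, was not called. SOCS3, another feedback inhibitor, read -4.99, -5.01 and -5.06 in HL-60 against 0.42, 0.31 and 0.88 in MOLM-13, where 1 sample was above the other two, with a difference of 5.56 (SE 0.102, limma adjusted p = 2.87e-17). CISH, the inhibitor named for its cytokine induction, read -0.99, -1.04 and -0.97 against 0.90, 0.82 and 0.83, a difference of 1.85 (SE 0.041, limma adjusted p = 3.09e-16). Of the 15 STAT5 targets measured in both lines 9 were called higher in MOLM-13, and 1, CCND2, was called higher in HL-60, with 3.62, 3.56 and 3.55 there and 1.19, 1.18 and 1.20 in MOLM-13, while BCL2L1, MCL1, PIM2, EGR1 and STAT5B were not called. Together 66.7% of the list was called, against 29.0% of all genes.

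The CISH promoter is shown because its STAT motif, TTCNNNGAA (the same on both strands, in capitals), occurs 4 times in the 250 bases before the start, at -241, -230, -129 and -112 counted from the start (RefSeq, GRCh38.p14).
CISH, chr3:50611775-50612024, minus strand: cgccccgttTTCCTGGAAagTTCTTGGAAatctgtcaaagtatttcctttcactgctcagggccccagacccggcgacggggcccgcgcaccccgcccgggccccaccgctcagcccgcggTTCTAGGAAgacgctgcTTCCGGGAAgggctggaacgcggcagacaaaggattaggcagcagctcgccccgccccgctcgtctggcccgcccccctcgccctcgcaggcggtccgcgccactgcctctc
Such a motif was found in 3 of the 11 STAT5 targets with a window, CISH, EGR1 and LTB, against 8.09% of 27305 genes, and EGR1 was not among the called genes. The windows of PIM1, SOCS1 and SOCS3 hold no such letters in these bases, which says nothing of sites elsewhere.

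Cytokine receptors and other kinases showed single large differences in both directions. IL3RA, the alpha chain of the interleukin-3 receptor (CD123) and a target of antibodies in AML, read -5.19, -5.15 and -5.10 in HL-60 against 1.17, 1.27 and 1.13 in MOLM-13. It was 80.8-fold higher in MOLM-13, a difference of 6.34 (SE 0.051, limma adjusted p = 1.04e-21); CSF2RA differed by 2.18, while CSF2RB, the beta chain that both share, was higher in HL-60, at -1.11. LYN, a SRC family kinase, differed by 3.94 (SE 0.028, limma adjusted p = 2.25e-22). Higher in HL-60 were IGF1R, the receptor of insulin-like growth factors, at 3.19, 3.17 and 3.15 against -0.81, -0.87 and -1.07 (difference -4.08, SE 0.053, limma adjusted p = 3.34e-19), IL2RG, the common gamma chain, at -4.06, and FGFR1 at -3.57. KIT, the stem cell factor receptor, was listed for HL-60 alone, at percentiles 69.8, 69.2 and 70.3. Of 42 receptors and kinases measured in both lines, 16 were called higher in MOLM-13, 6 higher in HL-60 and 20 were not called. The share called was 52.4%, against 29.0% of all genes.

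MYC and the genes that limit the MAP kinase pathway included some of the larger differences in favor of HL-60. MYC (NCBI Gene 4609) read 6.52, 6.48 and 6.55 in HL-60 against 4.20, 4.17 and 4.15 in MOLM-13, percentiles 99.8 and 97.3. It was 5.08-fold higher in HL-60, a difference of -2.34 (SE 0.027, limma adjusted p = 6.42e-20). The MYC target list did not show a difference of that size: of 35 ribosome-building and metabolic targets, 3 were called higher in each line, with a median of -0.35 against -0.14 for all genes. In this list 17.1% were called, against 29.0% of all genes. A negative difference was found in 27 of the 35, against 8854 of all 15517 genes. ODC1, the enzyme that opens polyamine synthesis, at -1.48 and TERT at -2.14 were among the 27. CCND1, cyclin D1, read 2.19, 2.17 and 2.16 in HL-60 against -3.69, -3.71 and -3.72 in MOLM-13, so it was 59.1-fold higher in HL-60, a difference of -5.88 (SE 0.042, limma adjusted p = 2.42e-22). The Sprouty inhibitors SPRY1, SPRY2 and SPRY4 and the ERK phosphatase DUSP6, all induced by ERK, differed by -2.67, -2.93, -2.36 and -1.80. DUSP1, a phosphatase of the stress kinases and ERK, was the reverse at -5.61, -5.62 and -5.61 in HL-60 against -0.35, -0.46 and 0.08 in MOLM-13, as were FOS and FOSL1 at 2.56 and 3.27. The list of 26 MAP kinase targets held 9 genes called higher in HL-60 and 6 called higher in MOLM-13, so its members differed in both directions. These are 34.6% and 23.1%, against 14.6% and 14.4% of all genes. NRAS, which is mutated in HL-60, differed by 0.14 and was not called.

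Some cell cycle inhibitors were listed for 1 line alone, and most of the BCL2 family was not called. Of 17 BCL2 family members measured in both lines 3 were called higher in MOLM-13 (17.6%), 1 higher in HL-60 (5.88%) and 13 were not called, so 23.5% were called against 29.0% of all genes. CDKN1A, the cell cycle inhibitor p21, was listed for MOLM-13 alone, at percentiles 91.8, 91.1 and 91.1 of its samples. CDKN2A and CDKN2B, the inhibitors of the cyclin D kinases, were listed for HL-60 alone, CDKN2A at percentiles 45.5, 44.4 and 45.8. Levels in the other line are not given, so these 3 genes have no fold. MDM2, a ubiquitin ligase amplified in some tumors, read 3.10, 3.08 and 3.06 in HL-60 against 4.80, 4.82 and 4.78 in MOLM-13, a difference of 1.72 (SE 0.025, limma adjusted p = 1.59e-18) that fell to 0.56 under the housekeeping median and was then not called. BBC3, the death protein PUMA, differed by 3.68, TNFRSF10B, a TRAIL receptor, by 4.26, RRM2B, a ribonucleotide reductase subunit, by 4.24 and BAX by 1.45. TNFRSF10B and RRM2B lie on chromosome 8, where most genes were called higher in MOLM-13. The apoptosis regulators BCL2 and MCL1, the targets of BH3 mimetic drugs, were near each other in the lines, BCL2 at 3.74, 3.61 and 3.69 in HL-60 against 3.86, 3.90 and 3.91 in MOLM-13 and MCL1 at 3.71, 3.71 and 3.65 in HL-60 against 4.26, 4.31 and 4.39 in MOLM-13, with differences of 0.21 and 0.63 that were not called. Of 46 oncogenes and suppressors measured in both lines 12 were called higher in MOLM-13 and 9 higher in HL-60, 26.1% and 19.6% against 14.4% and 14.6% of all genes, and the median was 0.03 (-1.13 when centred on the housekeeping median). IGF2BP1, an RNA-binding oncofetal protein, and PRAME, a tumor antigen, were listed for HL-60 alone at percentiles 93.9 ± 0.10 and 80.0 ± 0.91 (SD, n = 3), whereas IGF2BP2 was listed for MOLM-13 alone at 86.9.

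Surface markers gave some of the largest differences. CLEC5A, a lectin receptor of myeloid cells, read 1.27, 1.23 and 1.20 in HL-60 against -5.51, -5.57 and -5.55 in MOLM-13, so it was 109.6-fold higher in HL-60 (difference -6.78, SE 0.047, limma adjusted p = 1.90e-22). ANPEP, the aminopeptidase CD13 used to type AML, read 3.54, 3.50 and 3.58 against -2.88, -2.87 and -2.94, a difference of -6.44 (SE 0.039, limma adjusted p = 4.53e-23). CLEC12A, a marker of leukemic stem cells, differed by -4.78, and the complement inhibitor CD59 by -3.73. CD33, the antigen targeted by gemtuzumab, was close in the lines at 1.68, 1.61 and 1.66 in HL-60 against 2.09, 2.09 and 2.10 in MOLM-13, and its difference of 0.44 was not called although the groups did not overlap. In MOLM-13 the higher antigens were, beside IL3RA, CD38, an ectoenzyme, at -3.70, -3.73 and -3.69 in HL-60 against 0.90, 0.91 and 1.0 in MOLM-13 (difference 4.64, SE 0.048, limma adjusted p = 2.01e-20), the tetraspanin CD37 at 4.66, PECAM1 at 4.28 and the integrin chain ITGB7 at 4.83. CD4, which myeloid leukemias can carry, differed by -0.40 and CXCR4, the receptor that holds cells in the marrow, by -0.99, neither called. CD93, CD36, NCAM1 (CD56), CD70, THBD and HAVCR2 (TIM-3) were among 17 antigens listed for MOLM-13 alone, CD93 at percentile 93.3, while KIT, CD69 and TNFRSF4 were listed for HL-60 alone. Of 65 antigens measured in both lines, 25 were called higher in MOLM-13, 12 higher in HL-60 and 28 were not called. Among 21 integrins and adhesion molecules the counts were 10 and 3, with ITGAL at 3.80 and ITGA6 at -3.98. The shares called were 56.9% of the antigens and 61.9% of the adhesion list, against 29.0% of all genes.

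Of 8 genes of the MHC class II pathway, which presents peptides to helper T cells, measured in both lines, 4 were called higher in MOLM-13 and none higher in HL-60, with a median of 1.17 (0.0082 when centred on the housekeeping median, and 0.65 with a deposited log2 of at least 5 required in both lines). The 4 are 50% of the list, against 14.4% of all genes called higher in MOLM-13. CD74, the invariant chain, read -2.98, -3.04 and -2.93 in HL-60 against 2.16, 2.10 and 2.11 in MOLM-13, a difference of 5.11 (SE 0.044, limma adjusted p = 2.37e-21). HLA-DOB and HLA-DMA, which edit the bound peptide, differed by 4.17 and 2.37, and IFI30, a lysosomal reductase, by 1.52, or 0.36 under the housekeeping median and then not called. HLA-DRA, HLA-DRB1, HLA-DPB1, HLA-DQB1, HLA-DMB and their activator CIITA were listed for MOLM-13 alone, HLA-DRA at percentile 49.6 and CIITA at 47.3. The regulators RFX5, RFXAP and RFXANK, on which transcription of these genes depends, differed by -0.54, -0.18 and 0.49 and were not called. Class I did not share that pattern: of 18 genes 4 were called higher in each line and the median was -0.08. In all 44.4% of the class I list was called, against 29.0% of all genes. HLA-B, HLA-C and B2M, the light chain, differed by -0.67, -0.32 and -0.90 and were not called. HLA genes differ between people and resemble one another, so their counts rest on how well each line's alleles match the reference, which was not tested. Among 39 interferon-induced genes, 12 were called higher in MOLM-13 and 4 higher in HL-60, 30.8% and 10.3% against 14.4% and 14.6% of all genes, the largest being BST2 at 3.69 and HERC5 at -4.56. The chemokine CCL5 was higher in MOLM-13, at 5.64, and CXCL8, interleukin-8, higher in HL-60, at -2.42.

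Among the genes that act on decitabine and on DNA methylation, DCK and DNMT1 overlapped between the untreated lines on the centred scale. The de novo methyltransferases did not, like 92.6% of all genes. As deposited, neither DCK nor DNMT1 overlapped. DCK was then at 11.94 to 11.97 in HL-60 against 12.23 to 12.32 in MOLM-13, and DNMT1 at 14.27 to 14.35 against 14.51 to 14.58. DCK, the kinase that activates decitabine, read 1.97, 1.94 and 1.94 in HL-60 against 1.93, 2.02 and 1.99 in MOLM-13, overlapping groups with a difference of 0.03 (SE 0.032, limma adjusted p = 0.376). DNMT1, the maintenance methyltransferase that decitabine traps, read 4.27, 4.30 and 4.35 against 4.28, 4.21 and 4.22, a difference of -0.07 (SE 0.028, limma adjusted p = 0.0235) with overlapping groups, and it was at percentile 97.5 in both lines. The de novo methyltransferases were higher in MOLM-13, DNMT3A at -0.67, -0.77 and -0.65 in HL-60 against 0.71, 0.65 and 0.64 in MOLM-13 (difference 1.36, SE 0.044, limma adjusted p = 3.98e-14). DNMT3B read -1.58, -1.50 and -1.52 against 0.32, 0.43 and 0.32, a difference of 1.89 (SE 0.046, limma adjusted p = 1.12e-15). Under the housekeeping median these differences were 0.20 and 0.73, and neither was called. SAMHD1, which hydrolyzes the drug's triphosphate, read 1.51, 1.44 and 1.34 against 2.50, 2.56 and 2.57, a difference of 1.11 (SE 0.040, limma adjusted p = 1.92e-13) that turned to -0.05 under the housekeeping median. SLC29A2, a nucleoside transporter, was higher in HL-60 at -1.66, SLC29A1 at -0.97 was just short of a call, and CDA, the deaminase that inactivates the drug, was listed for MOLM-13 alone at percentile 17.3. Of 18 genes of cytidine handling 2 were called higher in MOLM-13 and 1 higher in HL-60, 16.7% in all, and of 20 genes of DNA methylation 5 and 1, or 30.0%, near the 29.0% of all genes called.

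Outside the lists, the most extreme genes were of several kinds. The genes with the largest differences in favor of HL-60, among those with a deposited log2 value of at least 8 in one line, were MEGF6, ZNF91, BICC1, IGFBP2, PARD3, SH3PXD2A, MCTP2, PTH2R, ZNF614, FAT1, RPL10P9 and NR2F2. MEGF6, a protein with EGF-like repeats, read 2.78, 2.73 and 2.87 in HL-60 against -5.97, -6.01 and -6.03 in MOLM-13, or 446-fold (difference -8.80, SE 0.050, limma adjusted p = 2.26e-23). ZNF91, a zinc finger repressor of retroelements, differed by -8.10, IGFBP2, a carrier of insulin-like growth factors, by -7.49, and FAT1, a giant cadherin, by -7.06. NR2F2, the nuclear receptor COUP-TFII, differed by -6.93, and RPL10P9 is a processed copy of a ribosomal protein gene whose reads are uncertain. In favor of MOLM-13 they were LOC100133165, FGL2, LRRC37A4P, SOCS2, RUBCNL, WDR49, H3C12, GOLGA8M, NIBAN2, CES1, ELOVL6 and HCG11. FGL2, a prothrombinase of monocytes, read -6.48, -6.45 and -6.50 in HL-60 against 2.46, 2.60 and 2.55 in MOLM-13, or 515-fold (difference 9.01, SE 0.050, limma adjusted p = 1.52e-23). CES1, the carboxylesterase of monocytes and liver, differed by 6.99 and ELOVL6, a fatty acid elongase, by 6.89. LOC100133165, LRRC37A4P and GOLGA8M belong to repeated gene families and H3C12 to the histone H3 genes, so their values are uncertain. Among genes listed for 1 line alone the highest were, for HL-60, IGF2BP1, FBN2 (fibrillin-2), ZNF544, ZNF841, ADGRA3, AFF2, FIRRE and ABLIM1, and for MOLM-13, H1-5, MEF2C, IRF8, ZNF521, ENPP2 (autotaxin), CD93, H3C7 and TUBB6. The HL-60 genes lay between percentile 82.5 and 93.9 and the MOLM-13 genes between 92.6 and 99.6, far above the median percentile of all genes so listed, 13.8 in HL-60 against 19.5 in MOLM-13. Of them, 95 and 160, respectively, were above their line's median gene.

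**Figure D4:**
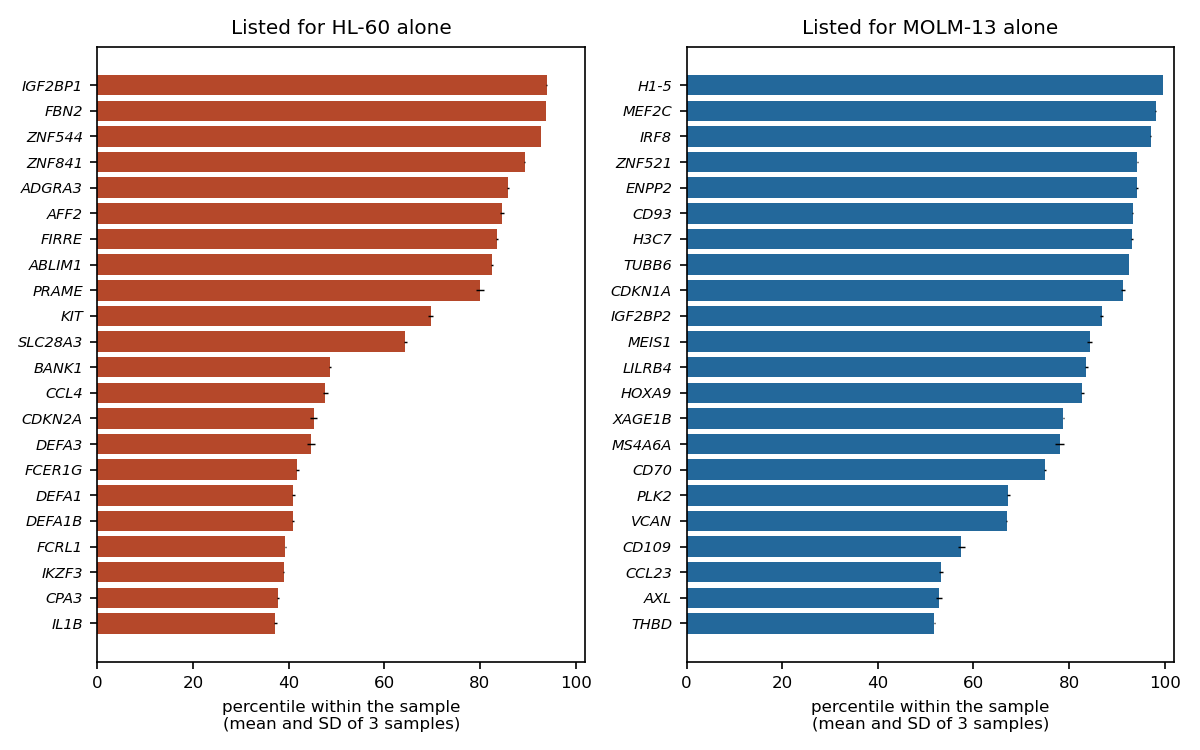
Percentile within the sample (x axis, mean of 3 samples, error bars SD) of list members and named genes with high percentiles listed for HL-60 alone (left) and for MOLM-13 alone (right). IGF2BP1 at 93.9 leads on the left and H1-5 at 99.6 on the right, where HOXA9, MEIS1 and CDKN1A lie between 82.8 and 91.3.

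One chromosome stood apart, a pattern noticed only after the values were seen. Of the 15517 shared genes 15202 (98.0%) could be placed on a chromosome by their NCBI Gene ID, and 482 of these lie on chromosome 8. Their median difference was 1.87, with quartiles of 1.20 and 2.34, and 381 of them (79.05%) were called higher in MOLM-13 against 14 (2.905%) called higher in HL-60. Over the other 15035 shared genes the median was -0.17, with 12.3% called higher in MOLM-13 and 15.0% in HL-60. The medians of the other chromosomes ran from -0.76 on chromosome 18, where 71 of 195 genes (36.4%) were called higher in HL-60, to 0.31 on chromosome 13. Chromosome 6 had a median of 0.24 and chromosome 16 one of -0.35. The DAC samples of the lines gave medians of 1.82 and -0.82 for chromosomes 8 and 18, and the NTX-301 samples 1.845 and -0.81. Genes of unrelated function on chromosome 8 shared the direction: RPL8, RPL7, RPL30 and RPS20, which account for 4 of the 7 ribosomal protein genes called, were higher in MOLM-13 by 2.42, 2.24, 2.03 and 2.15, and the kinase LYN, the replication helicase MCM4 and the adaptor YWHAZ lie there too. The median of the 76 ribosomal protein genes was 0.01 (-1.15 when centred on the housekeeping median), and 9.21% of them were called against 29.0% of all genes. MYC lies on the same chromosome with the opposite sign, and so does TRIB1, a pseudokinase, at 4.47, 4.40 and 4.45 in HL-60 against 2.02, 1.96 and 2.12 in MOLM-13 (difference -2.41, SE 0.036, limma adjusted p = 2.28e-18). Of the 20 genes placed nearest to MYC, 10 on each side in RefSeq order, 17 were measured in both lines with a median of 1.29, 11 were called higher in MOLM-13 and TRIB1 alone was called higher in HL-60. PVT1, the long RNA gene beside MYC, was higher in MOLM-13 by 1.03.

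**Figure D5:**
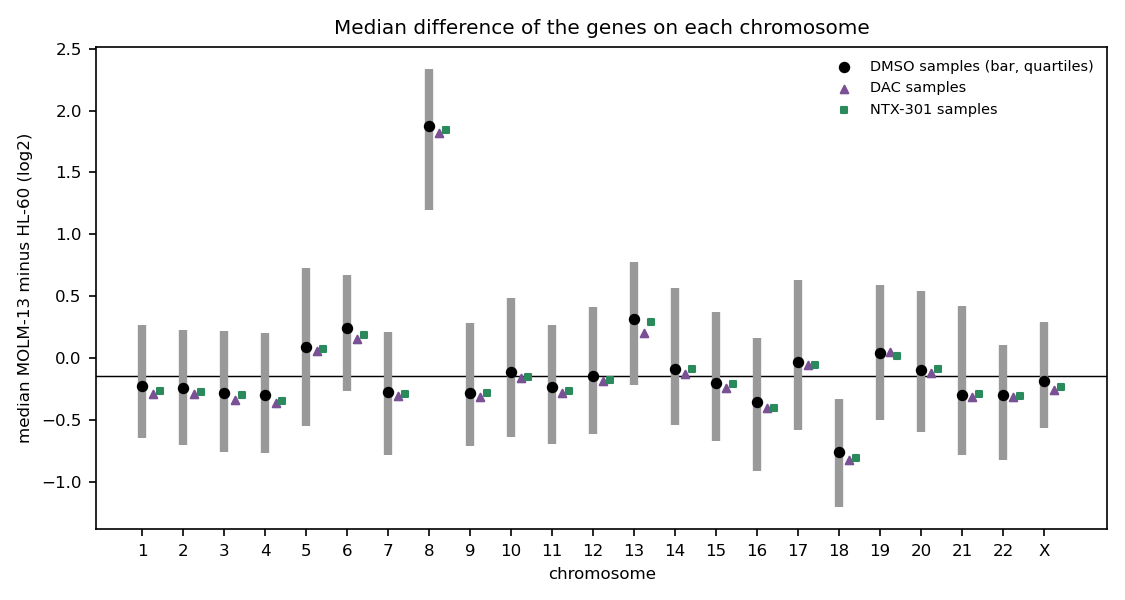
Median difference in log2 units, MOLM-13 minus HL-60 (y axis), of the shared genes on each chromosome (x axis): black circles with grey quartile bars for the DMSO samples, triangles for the DAC samples and squares for the NTX-301 samples, with a line at the median of all genes. Chromosome 8 stands at 1.87 in the DMSO samples and chromosome 18 at -0.76, and the other chromosomes lie between -0.35 and 0.31.

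The neighbors of CDKN2A, FLT3 and KMT2A were looked at in the same way. Around CDKN2A, 15 of 20 were measured in both lines, with a median of 0.66; CDKN2B was listed for HL-60 alone, CDKN2B-AS1 differed by -1.84 and MTAP, the next gene on the other side, by -0.91, which was not called. Around FLT3, the median of 14 genes was 0.28 with 3 called higher in MOLM-13, so FLT3 at 3.11 exceeded all of them, the highest being PAN3-AS1 at 2.06. Around KMT2A, the median of 18 genes was -0.19. The same difference was also read in the treated samples, which share no sample with the DMSO groups. Of the genes called higher in MOLM-13 in DMSO, 93.4% were called so in the DAC samples and 93.2% in the NTX-301 samples, and of those higher in HL-60, 90.7% and 87.6%. MPO differed by -5.19 in DAC and -5.70 in NTX-301, FLT3 by 2.89 and 2.98, and IL3RA by 6.10 and 6.13. These treated samples were normalized within the same table of each line and so are not independent of it. The stated dose differed between the lines, so in the treated samples line and dose cannot be told apart.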

How the data were processed

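RNA was sequenced from 18 samples of HL-60 and MOLM-13 cells, and the 6 DMSO samples were compared. The authors deposited normalized log2 values per gene, per the file headers, in separate tables for each line. How they were normalized is not given in the sources used here. The submitters' processing notes name FastQC, Trimmomatic 0.38, HISAT2, StringTie and hg19. The library kit keeps strand, per the labels' protocols; whether counting used it is not given. What kept a gene out of one line's table is not given either, so a gene listed for 1 line alone was given a percentile within its samples and no test. No depth can be given.

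Each sample was centred on its median over the 15517 shared genes and the lines were compared with limma 3.58.1 in R 4.3.3 (mean-variance trend on), with Benjamini-Hochberg adjustment over all 15517 genes. A gene was called at an adjusted p under 0.05 and a difference of at least 1. Fold changes are 2 to the power of the difference. Genes with low values lie close together over all 9 samples of a line. Folds that rest on such values are uncertain, and whether they are too small or too large was not tested. Tested on simulated data over the 15517 genes, the fit called 98.55% of 69 genes changed by 1.5 units and 100% of 64 changed by 3, and none of 67 changed by 0.5, with 0 false calls. By adjusted p alone, 4 unchanged genes were under 0.05. At this replicate spread the calls follow largely from the 1-unit rule. The simulated data held no shift of scale between the lines, so they cannot show its effect.

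The members and gene lists were chosen with earlier results of these data known. The genes named were the 12 largest differences each way among called genes with a deposited log2 value of at least 8 in the higher line and no overlap (readthrough, ribosomal RNA and sex-linked marker genes left out), the 8 highest percentiles listed for each line alone, the 4 largest differences of the main lists and a fixed set of lineage, oncogene and drug-related genes, of which CD34 and CD14 were not analysed here; other list members are given as examples, and some list members and some lists are not reported here. Older and newer names of a gene in a list were counted once. Names followed NCBI Gene IDs, of which 18600 (97.5%) matched RefSeq for GRCh38.p14, used for chromosomes and gene order. The promoter windows also came from RefSeq for GRCh38.p14 and were matched by gene symbol. Other centrings, filters, thresholds, left-out samples and the treated samples were tried as alternatives.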

Additional observations from a re-analysis of the deposited data

How the results depend on the processing

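The counts of called genes, 2235 higher in MOLM-13 and 2271 higher in HL-60, depended on the scale and on the minimum difference. With the values as deposited, 3020 and 1438 were called, and centring on the housekeeping genes' median gave 819 and 9936. That centring moves every gene by -1.16, while the median difference of the list itself is -0.04; the cause was not tested. Centring on the list's mean, an alternative chosen after seeing the data, gave 2024 and 2698. A minimum difference of 2 units gave 967 and 588, and none gave 6087 and 8277. Leaving out each sample in turn gave 2227 to 2252 and 2243 to 2290. Without the genes of chromosome 8, also chosen after seeing the data, 1854 and 2257 were called. The fit with a replicate block gave 2235 and 2271. The deviations of same-numbered samples correlated at -0.00038, 0.019 and -0.044, and those of differently numbered samples at -0.092 to 0.090. No pairing by number was seen, but with 3 samples per line its absence cannot be shown. By percentile rank in place of centring, 450 genes stood at least 25 points higher in MOLM-13 and 235 in HL-60.

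Of the 70 named genes with a difference, DNMT1 reversed with values as deposited (0.23), DCK with the ribosomal protein median (-0.098) and the housekeeping mean (-0.081), and with the housekeeping median DCK (-1.13), BCL2 (-0.95), CD33 (-0.72), ELANE (-0.77), MCL1 (-0.53) and SAMHD1 (-0.047). Calls were lost for SAMHD1 with the ribosomal protein median (0.98) and for DNMT3A (0.20), DNMT3B (0.73), IFI30 (0.36) and MDM2 (0.56) with the housekeeping median. The depth of the samples is unknown, so the precision of genes with low values cannot be given.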

Other observations

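Of 41 cell cycle genes measured in both lines, 4 were called higher in MOLM-13 and none higher in HL-60, with a median difference of -0.12 against -0.14 for all genes. That is 9.76% called, fewer than the 29.0% of all genes. CCNE2, cyclin E2, led them at 3.04 and MCM4, a subunit of the replication helicase, followed at 1.79, both on chromosome 8. Among 32 housekeeping genes, the ubiquitin gene UBB (2.58) and YWHAZ (2.41) were called higher in MOLM-13, or 6.25% against 14.4% of all genes. Of 20 inflammatory genes measured in both lines, 5 were called higher in MOLM-13 and 4 higher in HL-60, or 45% against 29.0% of all genes. Of 5 cancer-testis and related genes measured in both lines, MAGED1 (-6.51) and MAGEB2 (-3.78) were called higher in HL-60, or 40% against 14.6% of all genes.

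EPX, which encodes eosinophil peroxidase, was the 1 gene called in opposite directions in DMSO and in DAC, and is named because of that. Its difference was 1.05 in the DMSO samples, -1.30 in the DAC samples and -0.93 in the NTX-301 samples. Whether the difference itself changed with treatment was not tested, and the stated dose in the treated samples differed between the lines.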
